A study of Brassica napus with 12 samples.

Results

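Out of 96921 genes on the A and C chromosomes of rapeseed, 98 were selected as induced by submergence in a susceptible pool of germplasm and near a constant level in a resistant pool. Rapeseed, *Brassica napus*, is an allotetraploid crop whose A and C subgenomes often carry near-identical copies of a gene. The change of a gene was taken as the mean log2(RPKM + 1) of 3 submerged libraries minus that of 3 control libraries, where RPKM is a read number scaled to gene length and library size. A gene was chosen when its change was at least 1.2 in the susceptible pool and between -0.4 and 0.4 in the resistant pool. In addition, its lowest submerged susceptible value had to exceed its highest susceptible control value, and the submerged susceptible mean had to reach 3 RPKM. The whole table holds 109614 genes. All 98 passed the minimum for testing (1 RPKM or more in at least 3 libraries, 57391 genes), 3 of them through the submerged susceptible libraries alone.

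RNA was taken from young seedlings with flat cotyledons and a first true leaf just formed. Per the labels, all were 1 week old, with 25 °C by day, 22 °C by night, 16 h of light and 8 h of dark. There were 4 groups of 3 libraries: susceptible seedlings kept fully under distilled water for 24 h, susceptible controls, resistant seedlings submerged in the same way, and resistant controls. Each library mixed equal amounts of seedlings of 5 germplasm of its pool and the labels call the replicates biological, so p-values measure the spread between mixtures, and resistance cannot be told apart from the other differences between the germplasm that were pooled. In such bulk tissue, fewer cells of a type and less RNA per cell cannot be told apart.

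Water limits gas exchange, so submerged tissue runs short of oxygen and carbon dioxide and accumulates the gas ethylene. In Arabidopsis, a relative of rapeseed, low oxygen stabilises transcription factors of the ERF group VII, which switch on genes of fermentation and sugar breakdown. Susceptible and tolerant plants are compared to find responses that only one of them mounts, or that one of them has switched on beforehand. No source used here gives names for the deposited identifiers, and the 98 genes are therefore described by identifier, chromosome, level and pattern. The labelled tissue was likewise not checked against marker genes.

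Few of the genes induced in the susceptible pool stayed near their control level in the resistant one. A susceptible change of at least 1.2 was found for 2514 genes on the A and C chromosomes, and 127 of these had a resistant change within 0.4. The separation of the susceptible libraries left 112 genes, and the minimum of 3 RPKM left 98. A further 2261 genes met the rest of the rule but lay above the upper resistant bound, and 7 lay below the lower one. Exchanging the pools in the rule gave 83 genes, which serve below as a set of like size.

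**Figure D1:**
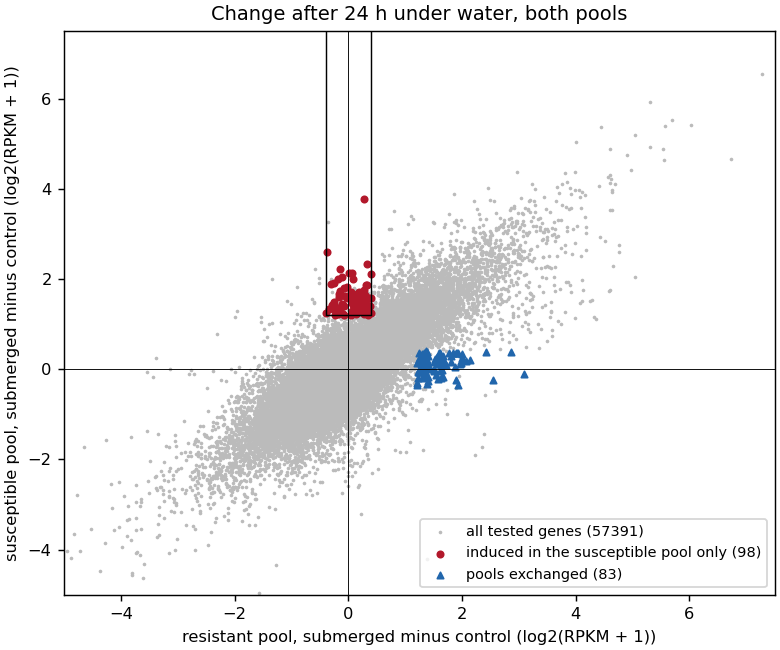
Change after submergence in the susceptible pool (vertical axis) against that in the resistant pool (horizontal axis), both as submerged minus control on the log2(RPKM + 1) scale. Grey points are the 57391 tested genes, red points the 98 genes and blue triangles the 83 genes of the exchanged rule; the box marks the bounds used for the choice, which fix where the red points lie, and genes beyond the axes are not shown.

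The 98 genes were of moderate abundance. The median over them of the group mean was 21.3 RPKM in submerged susceptible seedlings, against 6.93 RPKM in susceptible controls, and 13.2 RPKM in submerged resistant seedlings, against 10.2 RPKM in resistant controls. Over all tested genes the same medians were 4.48, 5.22, 4.77 and 5.61 RPKM. Together the 98 genes held 0.431% ± 0.0662 of all RPKM in submerged susceptible libraries and 0.145% ± 0.0308 in susceptible controls (SD, n = 3 each). They held 0.258% ± 0.0164 in submerged resistant libraries and 0.238% ± 0.000936 in resistant controls (SD, n = 3 each).

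The susceptible change, which served for the choice, had a median of 1.43, and a submerged mean that was 3.19 times the control mean in RPKM (median over genes). It was at least 2 in 9 genes and below 1.5 in 57, so most of the set lies close to the lower bound. Over all tested genes, the median change was -0.19 for the susceptible pool and -0.22 for the resistant one. The resistant change had a median of 0.13 and was above 0 in 66 genes. The bounds allow more values above than below the median of all tested genes, so nothing is read from this. Under median ratio scaling, which moved the medians of all genes to 0.02 and -0.04, the 98 genes had medians of 1.69 and 0.32.

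The linear-model test of the submergence response (limma, adjusted p under 0.05 over all tested genes) called 97 of the 98 higher and 0 lower in submerged susceptible seedlings, against 12% and 28.6% of all tested genes. By the rule, the submerged susceptible libraries lay above the controls without overlap in all 98, against 14.0% of all tested genes, where 34.3% had the opposite order. The remaining gene, BnaA07G0173000ZS, had an adjusted p of 0.0508 in the same limma fit. In the resistant pool, limma called none of the 98 in either direction, against 11.9% of all tested genes higher and 26.7% lower. At an unadjusted p under 0.05 it counted 2 of the 98, against 47.4% of all tested genes. The choice used these contrasts, so the counts are a description. The precision behind the flat resistant values was limited: the median SE of the resistant change was 0.27, and its 95% interval reached 0.6 in 62 genes and 1.2 in 4.

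Whether the pools responded differently is a question for the difference between their changes. Limma called a larger susceptible change in 13 of the 98 genes and a smaller one in 0 (adjusted p under 0.05), against 0.141% and 0.192% of all tested genes. The choice fixed the direction and a difference of at least 0.8, so the share is a description as well. At an unadjusted p under 0.05, 92 of the 98 were counted, and 7472 of all tested genes; the median adjusted p of the 98 was 0.148 and the highest 0.582. For the other 85 genes a difference between the responses was thus not shown at the adjusted threshold. The 13 calls depended on the filter, with 8 when no minimum level was set, and on single libraries: they numbered 0 without the first susceptible control, where 87 had an unadjusted p under 0.05, and 1 without the first submerged resistant library or the third resistant control. They numbered 3 without the first, 7 without the second and 6 without the third submerged susceptible library. Without the second and the third submerged resistant library there were 3 and 4, and without the first and the second resistant control 6 and 5. Without the second and the third susceptible control they numbered 18 and 10. Over all tested genes, calls of a larger susceptible change moved in the same direction when a library was left out. They numbered 81 with all libraries, 8 without the first susceptible control and 133 without the second. There were 14 without the first submerged resistant library and 12 without the third resistant control. With no minimum level, 0.111% of 88508 genes were called.

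The 8 genes with the largest susceptible change fell into different patterns in the resistant pool. BnaC02G0049800ZS had 78.3, 122 and 84.2 RPKM in submerged susceptible seedlings, against 6.34, 6.42 and 4.81 RPKM in susceptible controls. Its resistant libraries held 56.6, 64.5 and 36.6 RPKM submerged and 74.0, 19.5 and 50.4 RPKM as controls. It was thus abundant in the resistant pool with or without water, with a wide spread among the controls, and lowest by far in the susceptible controls. The susceptible change was 3.78 and the resistant change 0.28, a difference of 3.50 ± 0.56 (SE; limma adjusted p = 0.0338).

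BnaC09G0558200ZS showed the reverse level in the resistant pool. It had 61.5, 112 and 76.8 RPKM in submerged susceptible seedlings, against 18.7, 21.6 and 4.54 RPKM in susceptible controls. In the resistant pool it had 0.521, 0.414 and 0.854 RPKM submerged and 0.952, 1.19 and 1.05 RPKM as controls, so that all 6 resistant libraries lay below all susceptible ones. The submerged resistant values also lay below the resistant controls without overlap, a change of -0.38 near the lower bound. The difference between the changes was 2.98 ± 0.60 (SE; limma adjusted p = 0.0762) and missed the threshold.

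BnaC02G0486500ZS had 34.3, 24.3 and 36.1 RPKM in submerged susceptible seedlings, against 5.83, 3.67 and 6.92 RPKM in susceptible controls. Its resistant values of 18.9, 26.7 and 31.5 RPKM submerged and 10.7, 32.5 and 21.7 RPKM as controls overlapped the submerged susceptible range. BnaC03G0034400ZS had 83.8, 172 and 95.2 RPKM in submerged susceptible seedlings, against 26.2, 19.3 and 24.2 RPKM in susceptible controls. Its submerged resistant libraries were close together at 57.2, 64.9 and 60.6 RPKM, whereas its resistant controls were spread over 36.4, 67.0 and 124 RPKM. In both genes the resistant controls were above all 3 susceptible controls.

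BnaC09G0022800ZS had 21.5, 41.2 and 22.1 RPKM in submerged susceptible seedlings, against 5.44, 8.31 and 3.34 RPKM in susceptible controls. Its 6 resistant values were tight, at 17.63, 19.6 and 17.9 RPKM submerged and 21.6, 19.2 and 14.7 RPKM as controls, and 5 of the 6 lay below all 3 submerged susceptible libraries. BnaA02G0092800ZS had 4.86, 5.98 and 5.43 RPKM in submerged susceptible seedlings, against 0.553, 0.450 and 0.403 RPKM in susceptible controls. It was at 0.677, 0.0457 and 0.222 RPKM in submerged resistant seedlings and at 0.0269, 0.335 and 0.360 RPKM in resistant controls. Expression of this gene at 1 RPKM or more was therefore seen in the submerged susceptible libraries alone, through which it passed the minimum for testing, and its changes differed by 2.06 ± 0.25 (SE).

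BnaA10G0160400ZS had 18.5, 23.7 and 21.2 RPKM in submerged susceptible seedlings, against 5.55, 4.57 and 2.68 RPKM in susceptible controls. It had 13.8, 10.9 and 20.2 RPKM in submerged resistant seedlings and 9.55, 15.2 and 8.64 RPKM in resistant controls, in between the susceptible groups except for 1 library. BnaC09G0593500ZS had 15.4, 14.2 and 13.3 RPKM in submerged susceptible seedlings, against 2.77, 4.18 and 1.55 RPKM in susceptible controls. Its resistant values of 7.65, 4.63 and 5.98 RPKM submerged and 7.02, 6.40 and 6.25 RPKM as controls lay between the susceptible groups without overlap. Its difference between the changes was 2.17 ± 0.32 (SE; limma adjusted p = 0.0264).

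**Figure D2:**
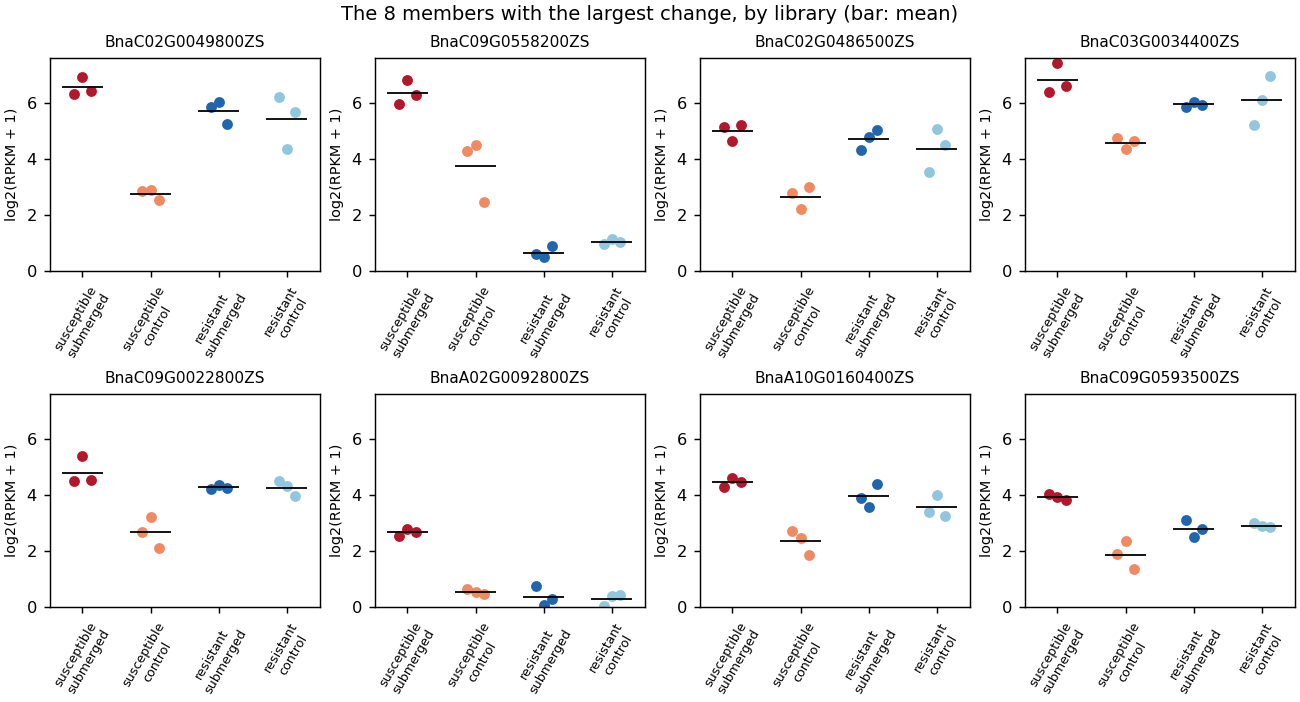
Level of the 8 genes with the largest susceptible change, as log2(RPKM + 1) on the vertical axis, in the 3 libraries of each group (points) with the group mean (bar). The resistant libraries reach into the submerged susceptible range in BnaC02G0486500ZS and lie below all susceptible libraries in BnaC09G0558200ZS and between the susceptible groups in BnaC09G0593500ZS.

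The level at which the resistant pool stood was then described for the whole set. For each gene, the mean of the 6 resistant libraries was placed on a scale where 0 is the susceptible control level and 1 the submerged susceptible level, in log2(RPKM + 1). The resistant level was near the susceptible control level (below 0.25) in 27 genes, between in 53 and near the submerged susceptible level (above 0.75) in 18. The median was 0.44, and the range ran from -1.345 to 1.269. In 13 genes the resistant pool stood below the susceptible controls, and in 5 above the submerged susceptible seedlings. The class between was thus the largest, but it spans more of the scale from 0 to 1 than either other class. The choice itself required a near-constant resistant level. By how the scale is built, a gene with little average difference between the pools falls between. With bounds that part the scale from 0 to 1 into equal pieces, 39.8% of the genes were between, against 54.1% with 0.25 and 0.75. With these equal pieces, 34.7% were near the susceptible control level and 25.5% near the submerged susceptible level.

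In the 83 genes of the exchanged rule, the level of the susceptible pool was placed between the resistant groups in the same way. It was near the resistant control level in 27 genes, between in 22 and near the submerged resistant level in 34, with a median of 0.53. As shares, 54.1% of the 98 genes and 26.5% of the 83 were intermediate, and 18.4% and 41.0% stood near the submerged level of the responding pool. The difference between these shares was not tested.

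**Figure D3:**
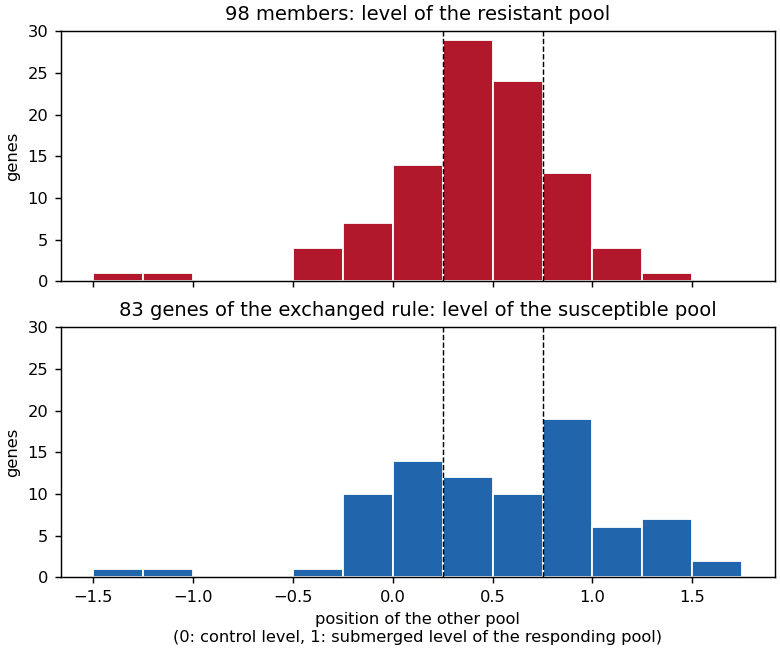
Number of genes (vertical axis) by the level of the pool that stayed near constant, on a scale where 0 is the control level and 1 the submerged level of the responding pool (horizontal axis). The upper panel shows the 98 genes, with 53 between the dashed lines at 0.25 and 0.75; the lower panel shows the 83 genes of the exchanged rule, with 22 between them.

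**Figure D4:**
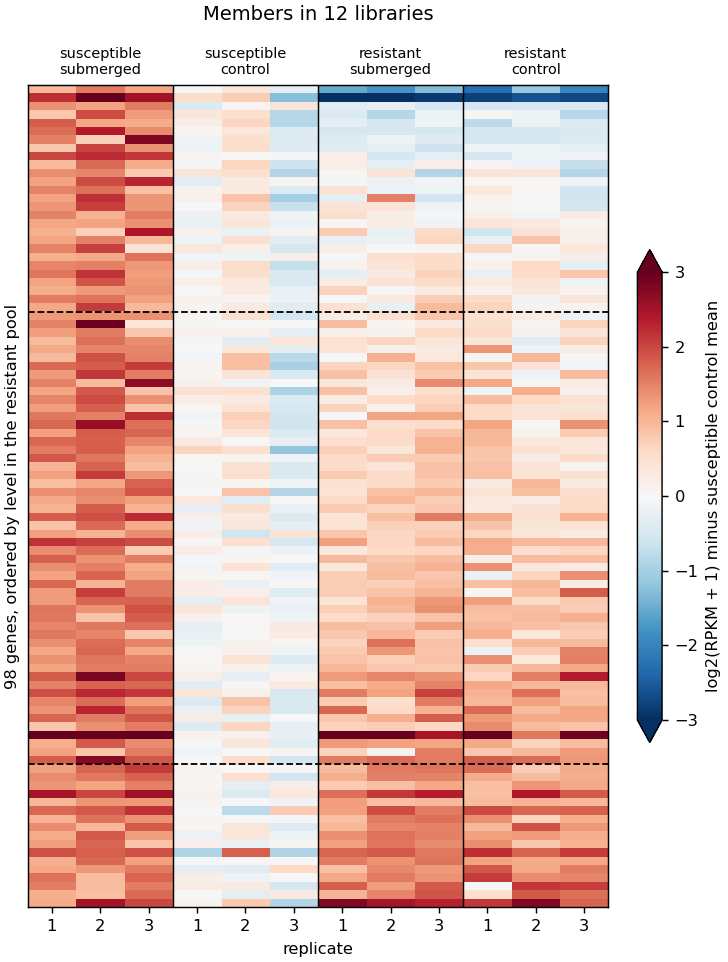
Levels of the 98 genes (rows) in the 12 libraries (columns), as log2(RPKM + 1) minus the mean of the 3 susceptible controls, ordered from the lowest to the highest relative resistant level. Dashed lines part the 27 genes near the susceptible control level, the 53 between and the 18 near the submerged susceptible level; values beyond 3 in either direction take the end colours.

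Comparing the libraries directly, all 3 submerged susceptible libraries lay above all 3 submerged resistant libraries in 65 of the 98 genes, against 12.3% of all tested genes, and the reverse order occurred in 0, against 26.5%. In controls, the susceptible libraries lay below the resistant ones in 44 genes, against 21.8%, and above them in 5, against 10.5%. The choice used these libraries, so these counts describe the set. Both orders together, susceptible above resistant under water and below it in controls, were found in 19 genes. In 41 genes the pools overlapped in controls and separated under water, and in 25 they were separated in controls and overlapped under water. These joint orders were not counted over all tested genes. A large susceptible change beside a near-constant resistant level was required by the choice, so the joint counts describe the set as well. Within the resistant pool, the submerged libraries lay above the controls without overlap in 5 genes, against 16.7% of all tested genes, and below them in 4, against 38.3%.

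The difference between the pools averaged over treatment was not used in the choice, which compares libraries within a pool, apart from the minimum on the submerged susceptible level. Limma called 17 of the 98 genes higher in the susceptible pool (17.3%), against 8.93% of all tested genes, and 14 lower (14.3%), against 21.1% (adjusted p under 0.05). The 17 include BnaA02G0092800ZS, BnaC04G0379200ZS and BnaC03G0435100ZS, which reached 1 RPKM in the submerged susceptible libraries alone. BnaC03G0610400ZS, BnaC04G0405600ZS, BnaA02G0174000ZS and BnaC03G0602700ZS are also among the 17 and reached 1 RPKM in susceptible libraries alone. All 7 were under 1 RPKM in all 6 resistant libraries. They passed the minimum for testing only through the pool where they are high, so their calls are a description. The share of 17.3% includes them and is therefore not read as a result. The median log2 difference was 0.09 over the 98 genes and -0.08 over all tested genes. All 17 higher genes stood near the susceptible control level in the resistant pool, and 13 of the 14 lower ones near the submerged susceptible level, which follows from how that scale is built. Median ratio scaling gave 19 higher and 7 lower among the 98, and 12.9% higher and 14.5% lower among all tested genes. The lower calls numbered 7 without the first submerged susceptible library, the first susceptible control or the second submerged resistant library, 8 without the third submerged resistant library and 9 without the third resistant control. The lower calls over all tested genes also fell in these fits, from 21.1% to 16.8%, 17.0%, 18.0%, 16.6% and 18.9%, in that order.

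The genes with the highest pool difference were nearly silent or weak in the resistant pool. BnaC09G0558200ZS, described above, was higher in the susceptible pool by 4.20 ± 0.30 (SE; limma adjusted p = 4.68e-06). BnaA05G0037100ZS had 34.0, 51.9 and 39.6 RPKM in submerged susceptible seedlings, against 16.3, 21.5 and 13.7 RPKM in susceptible controls. It had 5.28, 4.24 and 6.20 RPKM in submerged resistant seedlings and 2.71, 7.09 and 3.52 RPKM in resistant controls, below every susceptible library. Its pool difference was 2.28 ± 0.20 (SE; limma adjusted p = 1.61e-05).

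BnaC04G0379200ZS had 3.58, 6.51 and 2.83 RPKM in submerged susceptible seedlings, against 0.496, 0.801 and 0.0930 RPKM in susceptible controls. In the resistant pool it was listed at 0 in all 3 submerged libraries, in 2 controls also at 0 and in the third at 0.0623 RPKM. Its pool difference was 1.42 ± 0.17 (SE), and for BnaA02G0092800ZS it was 1.28 ± 0.13 (SE). Both passed the minimum for testing only through the submerged susceptible libraries, where they are high, so their differences are given as a description. BnaC09G0558200ZS and BnaA05G0037100ZS kept their call and direction in every alternative fit.

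Under 1 RPKM in all 6 resistant libraries were 7 of the 98 genes: BnaA02G0092800ZS, BnaC04G0379200ZS, BnaC03G0435100ZS, BnaC03G0610400ZS, BnaC04G0405600ZS, BnaA02G0174000ZS and BnaC03G0602700ZS, the last 5 of which were singled out after their values were seen. BnaC03G0435100ZS had 1.90, 3.88 and 5.18 RPKM in submerged susceptible seedlings, against 0, 0.494 and 0.345 RPKM in susceptible controls, and between 0.117 and 0.313 RPKM in the resistant libraries. BnaC03G0610400ZS was spread over 3.10, 1.33 and 8.99 RPKM in submerged susceptible seedlings, against 0.334, 1.03 and 0.0688 RPKM in susceptible controls, and reached at most 0.278 RPKM in the resistant pool. BnaC04G0405600ZS had 3.57, 3.06 and 4.18 RPKM in submerged susceptible seedlings, against 0.324, 0.798 and 1.32 RPKM in susceptible controls. At such low levels changes on the log2(RPKM + 1) scale are compressed, so the resistant bound is easily met. At the other end, 77 of the 98 genes were at 1 RPKM or more in all 12 libraries, and 6 were under 1 RPKM in all 3 susceptible controls.

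The genes with the lowest pool difference had their lowest group mean in susceptible controls, though single libraries departed from this order in some of them. BnaA07G0389600ZS had 6.83, 19.5 and 13.7 RPKM in submerged susceptible seedlings, against 2.89, 5.27 and 0.969 RPKM in susceptible controls. The resistant pool was at 23.8, 19.3 and 17.2 RPKM submerged and 14.8, 24.0 and 11.3 RPKM as controls. The first submerged susceptible library thus lay below the resistant range, and the second and the third within it. Its pool difference was -1.44 ± 0.31 (SE; limma adjusted p = 0.00514). For BnaC02G0049800ZS it was -0.90 ± 0.28 (SE; limma adjusted p = 0.0308), and this call was lost without any 1 of 8 libraries and under median ratio scaling (limma adjusted p between 0.0539 and 0.069).

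BnaC03G0591100ZS had 6.11, 5.50 and 6.09 RPKM in submerged susceptible seedlings, and 0, 5.48 and 0 RPKM in susceptible controls. Its resistant values lay between 4.60 and 7.61 RPKM in all 6 libraries. The second susceptible control was thus at the level of every submerged and resistant library, while the other two were listed at 0, and the rule on overlap was met by a margin of 5.50 against 5.48 RPKM. BnaA10G0111600ZS had 31.6, 21.0 and 31.9 RPKM in submerged susceptible seedlings, against 12.3, 12.7 and 6.96 RPKM in susceptible controls. It was at 38.4, 26.1 and 39.7 RPKM in submerged resistant seedlings and at 10.1, 48.5 and 46.9 RPKM in resistant controls, where 1 library fell among the susceptible controls. The pool difference missed the threshold in both, at -0.93 ± 0.39 (SE; limma adjusted p = 0.0905) and -0.84 ± 0.34 (SE; limma adjusted p = 0.0832).

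The most abundant of the 98 genes was BnaC06G0303400ZS, with 341, 350 and 302 RPKM in submerged susceptible seedlings, against 139, 180 and 74.2 RPKM in susceptible controls. It had 132, 162 and 181 RPKM in submerged resistant seedlings and 135, 183 and 101 RPKM in resistant controls. Of these 6 values, 4 lay within the range of the susceptible controls and 2 just above it. BnaC09G0546200ZS had 166, 209 and 206 RPKM in submerged susceptible seedlings, against 87.8, 83.1 and 77.0 RPKM in susceptible controls. Its resistant libraries were all between 154 and 198 RPKM, at the submerged susceptible level, and the pool difference was -0.41 ± 0.10 (SE; limma adjusted p = 0.0104), with an adjusted p of 0.0539 under median ratio scaling.

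BnaC05G0021600ZS had 96.6, 163 and 107 RPKM in submerged susceptible seedlings, against 39.2, 56.1 and 39.9 RPKM in susceptible controls. On average it stood higher in the resistant pool, at 117, 140 and 129 RPKM submerged and 105, 108 and 94.96 RPKM as controls, with a pool difference of -0.65 ± 0.14 (SE; limma adjusted p = 0.00622). BnaC07G0540700ZS had 88.9, 106 and 164 RPKM in submerged susceptible seedlings, against 48.0, 49.2 and 43.9 RPKM in susceptible controls. Its resistant values of 65.0, 70.9 and 80.0 RPKM submerged and 56.7, 94.4 and 56.8 RPKM as controls lay above the susceptible controls, and 1 of them reached into the submerged susceptible range. The 4 most abundant genes thus covered all 3 patterns of the resistant level.

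Positions in the genome were read from the identifiers. On the A chromosomes lay 45 of the 98 genes, 0.177% of the tested A genes, and on the C chromosomes 53, 0.197% of the tested C genes. All 19 chromosomes held at least 1 of them. C03 had the most, 11, followed by A05 with 9 and A09 with 8, and A01 and A08 had 1 each. As shares of the tested genes, A05 (0.297%), C01 (0.269%) and C03 (0.254%) were highest and A01 (0.0416%) lowest, against 0.187% overall. With counts this small the order of the chromosomes carries large counting error and was not tested.

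One close run of genes stood out. BnaC03G0433500ZS, BnaC03G0433600ZS and BnaC03G0433700ZS carry consecutive identifiers on C03. BnaC03G0433500ZS had 17.2, 25.4 and 17.4 RPKM in submerged susceptible seedlings, against 7.31, 7.09 and 6.32 RPKM in susceptible controls. BnaC03G0433600ZS had 39.9, 58.8 and 39.0 RPKM, against 17.3, 18.9 and 15.4 RPKM, in the same 2 groups. BnaC03G0433700ZS had 32.3, 56.8 and 39.7 RPKM, against 15.0, 14.4 and 9.74 RPKM. All 3 peaked in the second submerged susceptible library.

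In the resistant pool the controls of the same 3 genes varied together. BnaC03G0433500ZS had 12.3, 14.2 and 13.2 RPKM in submerged resistant seedlings and 5.88, 11.3 and 19.4 RPKM in resistant controls. BnaC03G0433600ZS had 30.5, 43.9 and 32.0 RPKM submerged and 15.2, 29.9 and 49.9 RPKM as controls, and BnaC03G0433700ZS 21.9, 24.2 and 27.0 RPKM submerged and 13.4, 24.6 and 48.0 RPKM as controls. The first resistant control was lowest and the third highest in each of the 3, so their small resistant changes of 0.24, 0.29 and -0.05 average over controls that differ by over 3-fold. BnaC03G0034400ZS, elsewhere on C03, had the same order of resistant controls. Near-identical neighbours can share reads, and whether these 3 are near-identical was not analysed here, so their values may not be independent.

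The only other genes within 10 identifier positions of each other were BnaA10G0159400ZS and BnaA10G0160400ZS. BnaA10G0159400ZS had 15.5, 37.5 and 22.9 RPKM in submerged susceptible seedlings, against 7.53, 12.7 and 6.24 RPKM in susceptible controls. It stood at 6.38, 6.66 and 5.04 RPKM in submerged resistant seedlings and 7.68, 7.59 and 6.90 RPKM in resistant controls, at the susceptible control level, with a pool difference of 1.00 ± 0.20 (SE; limma adjusted p = 0.00416). BnaA10G0160400ZS, by contrast, was intermediate in the resistant pool, as given above.

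Near the start of C02, among its first 500 tested genes, lay BnaC02G0049800ZS (number 255) and BnaC02G0001100ZS (number 7). BnaC02G0001100ZS had 31.4, 40.7 and 40.5 RPKM in submerged susceptible seedlings, against 13.9, 14.5 and 11.6 RPKM in susceptible controls. Its resistant values of 27.3, 24.0 and 23.5 RPKM submerged and 23.2, 27.1 and 30.4 RPKM as controls were steady between them, and the changes differed by 1.52 ± 0.21 (SE; limma adjusted p = 0.0226).

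The genes around the 98 had median changes close to those of other genes. Over the 383 tested genes within 2 positions on either side, the median susceptible change was -0.14 and the median resistant change -0.17, against -0.19 and -0.21 over all 52294 tested genes on the A and C chromosomes. Limma called 67 of these neighbours (17.5%) higher in submerged susceptible seedlings, against 12.5% of all tested genes on those chromosomes, and called a larger susceptible change in 3 (0.783%), against 72 of the 52294 (0.138%), 13 of which are among the 98. The differences between these shares were not tested.

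Replicates of the 98 genes were more spread than those of other genes. The choice used the same libraries, so the spread is a description of the set. The within-group SD on the log2 scale had a median of 0.37 over the 98, against 0.20 over the 25202 tested genes at like levels, and 0.21 over all tested genes. By group, the median SD was 0.37 in submerged susceptible libraries, 0.36 in susceptible controls, 0.25 in submerged resistant libraries and 0.32 in resistant controls, against 0.20, 0.20, 0.15 and 0.18 over all tested genes.

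Part of this spread followed particular libraries. The third susceptible control was the lowest of its group in 65 of the 98 genes and the second the highest in 62, against 28.1% and 32.8% of all tested genes. The median deviation from the group mean was -0.27 in the third and 0.27 in the second susceptible control, against 0.04 and -0.01 over all tested genes. Among submerged susceptible libraries, the second was highest in 57 genes and the first lowest in 49, against 33.5% and 36.4% of all tested genes. Leaving out the second susceptible control, the rule chose 161 genes, 91 of them among the 98; leaving out the third, it chose 77, of which 71 were among them. The choice used these libraries, so their ranks describe the set as well. The part of these libraries in the choice was not tested beyond these counts.

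The change was also read in libraries left out when the genes were chosen. The bounds of the rule had been set with earlier results of these data known, so the values are a description and no independent support. The rule was applied to the libraries of only 2 replicate numbers, and the change was taken in the libraries of the remaining number. Without replicate 1, the rule chose 123 genes, 72 of them among the 98, with a median susceptible change of 1.45. In replicate 1 their median susceptible change was 1.12 and their median resistant change 0.0. Of the 123, 121 were above 0 in the susceptible pool (98.4%, against 44.7% of the 32993 genes at the same minimum level), and 53 reached 1.2 (43.1%, against 7.3%).

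Without replicate 2, the rule chose 164 genes, 65 of them among the 98. In replicate 2 their median susceptible change was 0.88 and their median resistant change 0.22. The susceptible change was above 0 in 142 of the 164 (86.6%, against 38.0% of genes at that level) and reached 1.2 in 58 (35.4%, against 7.0%). Without replicate 3, the rule chose 109 genes, 59 of them among the 98. In replicate 3 their median susceptible change was 1.43 and their median resistant change 0.39, and the susceptible change was above 0 in 101 of the 109 (92.7%, against 46.4%). It reached 1.2 in 67 (61.5%, against 9.4%).

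A resistant change within 0.4 was no more frequent among the genes chosen than among all genes at the same minimum level in 2 of the 3 replicates. Few of all those genes reached 1.2 in the susceptible pool (7.3%, 7.0% and 9.4%). A comparison with only the genes induced in the susceptible pool was not made in the libraries left out. In the libraries left out, the resistant change lay within 0.4 in 56 of 123, 84 of 164 and 39 of 109 genes, that is 45.5%, 51.2% and 35.8%, against 52.9%, 49.9% and 48.7% of all genes at the same minimum level. Both parts of the pattern, 1.2 or more in the susceptible pool and within 0.4 in the resistant pool, were shown by 26, 30 and 22 genes, that is 21.1%, 18.3% and 20.2%, against 0.53%, 0.472% and 0.836% of genes at that level. The susceptible change exceeded the resistant change in 110 of 123, 116 of 164 and 96 of 109 genes, that is 89.4%, 70.7% and 88.1%, against 53.6%, 47.8% and 47.2% of genes at that level. These values rest on single libraries and carry no test.

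**Figure D5:**
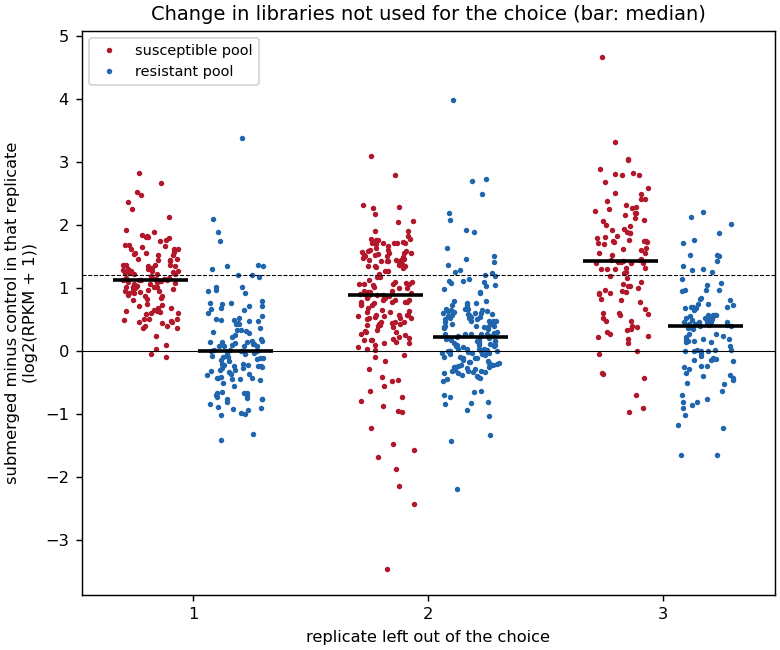
Change in the libraries that were not used for the choice (vertical axis, submerged minus control, log2(RPKM + 1)) for genes chosen without replicate 1, 2 or 3 (horizontal axis). Points are genes and bars medians, which were 1.12, 0.88 and 1.43 in the susceptible pool (red) and 0.0, 0.22 and 0.39 in the resistant pool (blue); the dashed line is at 1.2.

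Values on either side of the susceptible and the upper resistant bound differed little, while the gap at the lower resistant bound was wider. Just inside the susceptible bound were BnaA03G0527900ZS, BnaC07G0383600ZS and BnaA09G0465900ZS, with changes of 1.211, 1.201 and 1.201, and just outside it BnaC04G0013500ZS, BnaC09G0050100ZS and BnaC09G0531200ZS, with 1.199, 1.199 and 1.198. Another 72 genes met the rest of the rule with a change between 1.0 and 1.2. Next to the upper resistant bound, BnaC01G0225400ZS and BnaA07G0385600ZS were inside at 0.399 and 0.392, and BnaC01G0213100ZS and BnaC03G0509700ZS outside at 0.404 and 0.405. Next to the lower bound, BnaA02G0206900ZS and BnaC09G0558200ZS were inside at -0.40 and -0.38, and BnaA08G0205900ZS and BnaA08G0190100ZS outside at -0.52 and -0.59.

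The values of BnaA07G0385600ZS show what an average within the bound can hold. It had 21.8, 44.2 and 23.8 RPKM in submerged susceptible seedlings, against 9.98, 16.7 and 3.89 RPKM in susceptible controls. In submerged resistant seedlings it had 7.15, 26.9 and 5.66 RPKM, and in resistant controls 9.60, 8.78 and 5.46 RPKM. The second submerged resistant library was thus as high as the submerged susceptible ones, and the resistant change of 0.39 had an SE of 0.56.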

How the data were processed

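Per the labels, polyadenylated RNA was isolated on oligo(dT) beads, fragmented and sequenced in pairs. RPKM values were deposited by the authors in 1 table of 109614 genes and 12 libraries; HISAT2 and StringTie are named in the submitters' processing notes, while versions, genome build and annotation were not given in the sources used here. Only the deposited table's name states the unit; StringTie commonly writes FPKM or TPM, so the absolute scale is uncertain. RPKM values are scaled, so count models do not apply. Depth relative to the deepest library, from the spacing of low values, was 0.739 to 0.844 in submerged susceptible, 0.728 to 0.786 in susceptible control, 0.894 to 0.937 in submerged resistant and 0.64 to 1 in resistant control libraries. Absolute depth is unknown. No 2 libraries held identical values. The RefSeq table (Da-Ae, 123214 rows) held 0 of the deposited identifiers, so no gene was named and no sequence is shown. Reads that fit several copies of a gene can be split in such values.

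Genes reaching 1 RPKM in 3 or more libraries were fitted as log2(RPKM + 1), without further scaling, by limma 3.58.1 in R 4.3.3 with a variance trend, as 4 group means over 12 libraries (8 residual and 3.35 prior degrees of freedom). P-values are 2-sided, with Benjamini-Hochberg adjustment across every tested gene and a threshold of 0.05. This scale understates fold changes of weak genes. The script was also tested on simulated data. The members, the bounds and the comparisons were chosen with earlier results of these data known. Named were the 8 genes of the largest susceptible change, the 4 most abundant, the 4 with the highest and the 4 with the lowest pool difference, neighbour runs, genes next to each bound and those in the first 500 tested genes of C02. The neighbouring genes and the counts of libraries by rank were added after seeing the data. Alternatives were a pseudocount of 0.1, other filters and scalings, the replicate number as a block, other bounds and leaving out each library.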

Additional observations from a re-analysis of the deposited data

Results flagged for a closer look

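In 13 of the 98 genes the susceptible and the resistant change differed by the limma test of the difference (adjusted p under 0.05). The choice of the genes had already fixed its direction, so the values below describe the set. The number of calls was 0 without the first susceptible control, and 1 without the first submerged resistant library or the third resistant control. Over all tested genes, calls of a larger susceptible change numbered 81 with all libraries, and 8, 14 and 12 in the same fits, in that order. BnaA02G0092800ZS, BnaC03G0435100ZS and BnaC04G0379200ZS passed the minimum for testing only through the submerged susceptible libraries. The differences, susceptible minus resistant change on the log2(RPKM + 1) scale, were 3.50 in BnaC02G0049800ZS, 2.17 in BnaC09G0593500ZS, 2.06 in BnaA02G0092800ZS, 1.90 in BnaC03G0435100ZS, 1.86 in BnaC04G0379200ZS and 1.77 in BnaA09G0673600ZS. They were 1.68 in BnaA05G0390100ZS, 1.53 in BnaC04G0466000ZS, 1.52 in both BnaC02G0001100ZS and BnaA03G0249100ZS, 1.46 in BnaA04G0169000ZS, 1.45 in BnaC08G0189500ZS and 1.17 in BnaC09G0546200ZS.

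Several of these genes had tight replicates, and 3 are given here that were singled out after their values were seen. BnaA04G0169000ZS had 66.7, 72.3 and 75.9 RPKM in submerged susceptible seedlings, against 19.0, 23.9 and 28.4 RPKM in susceptible controls, and 45.2, 43.0 and 57.5 RPKM in submerged resistant seedlings, against 47.9, 44.2 and 41.5 RPKM in resistant controls. BnaC04G0466000ZS had 52.5, 63.7 and 62.2 RPKM in submerged susceptible seedlings, against 14.4, 18.5 and 22.3 RPKM in susceptible controls, and 34.7, 40.0 and 52.5 RPKM in submerged resistant seedlings, against 41.7, 37.0 and 36.5 RPKM in resistant controls. In both genes the resistant libraries lay between the susceptible groups. BnaC08G0189500ZS had 19.3, 20.1 and 22.7 RPKM in submerged susceptible seedlings, against 6.98, 10.8 and 7.15 RPKM in susceptible controls, and stood at 8.45, 9.70 and 7.45 RPKM in submerged resistant seedlings, against 11.2, 10.1 and 8.69 RPKM in resistant controls.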

How the results depend on the processing

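The number of genes chosen was 170 and 41 with a susceptible bound of 1.0 and 1.5, 65 with a minimum of 10 RPKM, and 77 to 161 without 1 library. It was 132 with a pseudocount of 0.1 (86 of the 98 kept), 106 with quantile normalization (78 kept) and 127 with median ratio scaling (66 kept). The share of genes between the susceptible levels was 39.8% with class bounds that part the scale from 0 to 1 into equal pieces. In the pool difference averaged over treatment, 9 genes were called higher with a minimum mean of 5 RPKM, which left 71 of the 98 tested. The share over all genes in that fit was 9.88%. Median ratio scaling gave 7 lower, against 14.5% of all tested genes. Without 1 library, 12 to 21 of the 98 were called higher and 7 to 14 lower. Over all tested genes, 7.36% to 10.2% were called higher and 16.6% to 22.9% lower without 1 library. The difference between the changes was called in 8 genes without a filter, against 0.111% of all genes in that fit, and in 0 to 18 genes without 1 library. Over all tested genes, a larger susceptible change was called in 81 with all libraries and in 8 to 133 without 1 library. Replicates of equal number did not vary together in most pairs of groups (correlations of deviations from -0.34 to 0.39, over 0.1 in 4 of 18 pairs), so the numbers were not taken as pairs. Between the susceptible groups the correlations were 0.39, 0.14 and -0.04 for replicates 1, 2 and 3, and between the resistant groups 0.21, -0.12 and -0.31. Among the 98 genes, the second library was highest in 57 in submerged susceptible and in 62 in susceptible control libraries, so a shared part is not excluded. With the number as a replicate block, 1 gene was called with a larger susceptible change, against 0.0314% of all tested genes. In the same fit, 18 were called higher and 13 lower in the pool difference, against 8.57% and 19.4%. In the resistant response, 2 genes were called higher under either quantile normalization or median ratio scaling, against 15.3% and 17.4% of all tested genes. Without 1 library, 0 to 1 were called higher and 0 to 1 lower, against 9.73% to 12.4% and 20.4% to 27.7%. The causes were not tested. Of 500 values of single named genes under an alternative, 469 kept direction and call, 23 lost and 8 gained the call, and 0 reversed. Depth is known only relative to other libraries, so no counting error is given.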

Other observations

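The rest of the rule was also met by 12 of 8695 transcripts listed as new genes and by 5 of 3998 genes on unplaced scaffolds, which were not part of the set. Several of the new genes were near 0 in the resistant pool. Brassica_napus_newGene_3904 averaged 7.74 ± 4.99 RPKM in submerged susceptible seedlings and 1.32 ± 0.371 RPKM in susceptible controls, against 0.0510 ± 0.0539 RPKM in submerged resistant seedlings and 0.0505 ± 0.0875 RPKM in resistant controls (SD, n = 3 each). Brassica_napus_newGene_636 averaged 9.31 ± 4.50 RPKM in submerged susceptible seedlings and 2.28 ± 1.44 RPKM in susceptible controls (SD, n = 3 each) and was listed at 0 in all 6 resistant libraries. Brassica_napus_newGene_9966 averaged 6.24 ± 2.31 RPKM in submerged susceptible seedlings and 1.23 ± 0.0886 RPKM in susceptible controls (SD, n = 3 each), and stayed below 0.1 RPKM on average in both resistant groups.

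Other transcripts had clear levels in the resistant pool. Brassica_napus_newGene_8828 averaged 44.1 ± 11.4 RPKM in submerged susceptible seedlings and 15.0 ± 2.86 RPKM in susceptible controls, against 55.5 ± 9.54 RPKM in submerged resistant seedlings and 53.6 ± 10.2 RPKM in resistant controls (SD, n = 3 each). There, both resistant groups were above the submerged susceptible mean. Bnascaffold0027G0055500ZS had the largest susceptible change of the 17, 1.80, at 39.3 ± 6.70 RPKM in submerged susceptible seedlings and 10.8 ± 2.94 RPKM in susceptible controls, against 14.5 ± 2.07 RPKM in submerged resistant seedlings and 13.5 ± 2.34 RPKM in resistant controls (SD, n = 3 each). In it, the resistant groups were nearer to the susceptible controls. These transcripts were singled out after their values were seen.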
